A study of Mus musculus with 11 samples.

Results

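The 10 genes described here belong to the canonical Wnt pathway and were followed in mitral leaflets: the gene of beta-catenin (Ctnnb1), genes of the complex that destroys it (Apc, Axin1, Axin2, Gsk3b), the gene of the inhibitor Naked1 (Nkd1) and the 4 Tcf/Lef factor genes (Lef1, Tcf7, Tcf7l1, Tcf7l2). They were chosen by name from 28591 gene symbols in the 2 count tables, and all 10 were found in both tables. RNA was sequenced from the leaflets, the flaps of the valve at the inlet of the left ventricle, in 2 mouse experiments. There were 5 libraries from an Ift88 experiment and 6 from a Dzip1 experiment. Ift88 encodes a component of intraflagellar transport, which builds cilia, and Dzip1 encodes a zinc finger protein found at the base of the cilium.

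The knockout group (3 libraries) had the genotype NfatC1Cre(+), Ift88f/f, and its wild type (2 libraries) NfatC1Cre(+); Ift88+/+, so that all 5 libraries carried the Cre. Nfatc1 is expressed in endocardial and valve endothelial cells, and a leaflet also holds cells in which this Cre need not have been active. The second mutant group (3 libraries) was Dzip1S14R/+, heterozygous for an S14R allele, and its wild type (3 libraries) was Dzip1+/+. The sources used here state no age. Whether the libraries of a group are from different animals is not in the labels, and the p-values below therefore rest on the spread among libraries, which may be technical. The libraries held 23.4 to 40.3 M counts in the knockout and 31.4 and 53.8 M counts in its wild type. They held 86.0 to 93.5 M counts in S14R/+ and 75.1 to 79.1 M counts in its wild type.

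In cells without a Wnt signal, the scaffolds Apc and Axin hold beta-catenin next to the kinase Gsk3b, whose phosphorylation marks it for destruction. A Wnt signal stops this, and beta-catenin then enters the nucleus and binds Tcf/Lef factors on the promoters of target genes. During heart development the pathway is known for its part in the formation of the endocardial cushions, from which the valve leaflets grow. Since the pathway acts largely through beta-catenin protein, transcript levels do not measure its activity.

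Axin2, Lef1 and Nkd1 are known targets of the pathway that feed back on it, and their promoters show the stretch of DNA from which these 3 transcripts start. The sequences are from RefSeq (GRCm38.p6), on the strand of the gene, from 250 bases before to 50 bases after an annotated start. The core CTTTG of the Tcf/Lef motif (CAAAG on the other strand) is in capitals where a window held it. The windows lie at chr11:108920099-108920398 (plus strand) for Axin2, chr3:131110047-131110346 (plus strand) for Lef1 and chr8:88527383-88527682 (plus strand) for Nkd1. That of Lef1 is the first of 4 windows found for the gene. The Nkd1 window lies inside the gene as annotated in GENCODE M21 (chr8:88521354-88594884), so the sequence at that gene's outermost start is not shown.
Axin2: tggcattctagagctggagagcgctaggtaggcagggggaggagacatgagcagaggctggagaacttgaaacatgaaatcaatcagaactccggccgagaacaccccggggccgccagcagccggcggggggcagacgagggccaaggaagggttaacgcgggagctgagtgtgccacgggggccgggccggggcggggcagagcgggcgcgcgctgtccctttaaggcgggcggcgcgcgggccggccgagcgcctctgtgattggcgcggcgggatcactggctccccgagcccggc
Lef1: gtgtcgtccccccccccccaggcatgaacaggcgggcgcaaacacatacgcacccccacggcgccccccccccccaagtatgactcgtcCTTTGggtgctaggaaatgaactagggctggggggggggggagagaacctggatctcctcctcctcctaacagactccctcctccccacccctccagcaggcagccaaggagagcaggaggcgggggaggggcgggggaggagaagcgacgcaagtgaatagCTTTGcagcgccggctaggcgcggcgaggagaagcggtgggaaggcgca
Nkd1: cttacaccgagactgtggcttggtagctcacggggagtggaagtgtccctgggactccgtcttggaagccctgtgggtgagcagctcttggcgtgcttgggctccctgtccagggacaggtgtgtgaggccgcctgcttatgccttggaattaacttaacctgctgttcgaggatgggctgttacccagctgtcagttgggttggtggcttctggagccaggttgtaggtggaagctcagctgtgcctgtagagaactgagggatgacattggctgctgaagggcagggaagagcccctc

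In this Lef1 window CTTTG began at bases -161 and 2 relative to the start, and the Axin2 and Nkd1 windows held neither CTTTG nor CAAAG. The core was in 53.9% of 32851 promoters of this length, so its presence is common. The longer CTTTGAT, which contains the core, was in 3.73% of them on either strand and in none of the 14 windows found for 8 of the 10 genes. A match describes letters only, and a missing match says nothing about binding outside these windows.

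Levels are given as CPM, the counts of a gene per M counts of its library. Marker genes of cell types differed between the Ift88 libraries. The 14 endothelial marker genes summed to 2432 to 3941 CPM in the knockout, against 509 CPM in wild-type replicate 1 and 4399 CPM in wild-type replicate 2. The 14 interstitial and fibroblast marker genes summed to 9760 to 15403 CPM in the knockout, against 2492 and 9171 CPM in these wild-type libraries. The 20 cardiomyocyte genes summed to 37147 to 48999 CPM in the knockout, against 68517 and 221 CPM. The leaflet's own 2 cell classes were thus detected in every library, with none of their marker genes at 0, while heart muscle RNA was abundant in all but wild-type replicate 2. In bulk tissue, fewer cells of a type and less RNA per cell cannot be told apart. In the Dzip1 experiment the endothelial sums overlapped, at 2322 to 2358 CPM in S14R/+ and 2274 to 2343 CPM in wild type. The smooth muscle and pericyte, erythroid, epicardial and mesothelial, melanocyte and Schwann, and adipocyte sums also overlapped. Sums apart by genotype were those of cardiomyocyte, interstitial and fibroblast, and macrophage and leukocyte markers. The cardiomyocyte sum was 52619 to 53074 CPM in S14R/+ and 45910 to 50937 CPM in wild type. The interstitial and fibroblast sum was 11202 to 11448 CPM in S14R/+ and 11500 to 13520 CPM in wild type, and that of 13 macrophage and leukocyte markers 119 to 131 CPM in S14R/+ and 133 to 170 CPM in wild type.

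The Dzip1 libraries give the best measured order of the 10 genes in a leaflet. Levels were taken per kilobase (kb) of exon, to set genes of different length side by side. This length counts all annotated exons of a gene, whether or not a leaflet uses them. Ctnnb1 led at 205 ± 0.84 CPM per kb in S14R/+ and 205 ± 5.66 CPM per kb in wild type (SD, n = 3 each). Axin1, a scaffold of the destruction complex, followed with 15.1 ± 0.62 CPM per kb in S14R/+ and 15.5 ± 0.26 CPM per kb in wild type. Gsk3b had 14.7 ± 0.33 and Tcf7l1 12.7 ± 0.39 CPM per kb in S14R/+, against 14.7 ± 0.29 and 13.2 ± 0.70 CPM per kb in wild type. Apc, Nkd1, Tcf7, Tcf7l2, Axin2 and Lef1 followed in this order, and Lef1 was lowest with 2.43 ± 0.0062 CPM per kb in S14R/+ and 2.48 ± 0.29 CPM per kb in wild type. Most neighbours in this order were separated: Axin1 and Gsk3b overlapped in S14R/+, and Apc and Nkd1 overlapped in wild type. The same order of genes was found in both genotypes. It depends on the exon lengths used. By CPM alone Lef1 (21.4 CPM in S14R/+ and 21.8 CPM in wild type) was above Tcf7 (11.1 and 11.01 CPM).

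In the Ift88 experiment the order was less fixed. Ctnnb1 again led with 166 ± 11.8 CPM per kb in the knockout (SD, n = 3) and 113 ± 39.0 CPM per kb in wild type (SD, n = 2). Nkd1 came second with 16.8 ± 7.92 CPM per kb in the knockout and 13.95 ± 17.0 CPM per kb in wild type. Axin2 was last with 0.34 ± 0.28 CPM per kb in the knockout and 0.086 ± 0.056 CPM per kb in wild type. Over the knockout libraries the range of every neighbour below Ctnnb1 overlapped with the next, so ranges do not separate neighbours there. Within each knockout library, however, Nkd1 was above Gsk3b, the next gene by mean (8.89 and 6.72, 24.7 and 9.31, 16.8 and 5.45 CPM per kb). Axin2 was the lowest in each of them, with 0.203, 0.654 and 0.155 CPM per kb. In wild type, neighbours were apart at Ctnnb1 and Nkd1, at Gsk3b and Axin1, and at Apc and Axin2. The second place of Nkd1 there rested on replicate 2 (26.0 CPM per kb). In wild-type replicate 1 Nkd1 (1.90 CPM per kb) was below Tcf7l2 (2.63) and Gsk3b (2.49), and Tcf7 (0) was below Axin2 (0.046).

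In the Ift88 knockout, the genes of the destruction complex and Ctnnb1 lay above wild type in every library, and the Tcf/Lef genes and Nkd1 did not separate by genotype. The largest difference was that of Apc, at 7.56 times the wild-type level (95% interval 2.77 to 20.7). None of the 10 passed the threshold of an adjusted p under 0.05 in edgeR's quasi-likelihood test, in which 0% of 14244 tested genes passed. With wild-type replicate 1 left out 187 genes passed, none of them among the 10. That fit has 1 wild-type library, assumed to vary like the knockout libraries, and the cardiomyocyte marker sum is 37147 to 48999 CPM in the knockout, against 221 CPM in that library. At an unadjusted p under 0.05, 2 of the 10 (Apc and Gsk3b) were below, against 6.01% of all tested genes. Groups did not overlap, with the knockout higher, in 5 of the 10, against 15.4% of all tested genes. Groups did not overlap with the knockout lower in none of the 10, against 7.55% of all tested genes.

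The targeted gene gave 3.03, 4.12 and 0.428 CPM in the libraries labelled knockout, against 6.31 and 21.2 CPM in wild type. Ift88 was thus lower in every knockout library than in either wild-type library, with a log2 fold change of -2.48 ± 1.13 (SE; edgeR adjusted p = 0.801). Some Ift88 counts remained in all 3 knockout libraries.

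Apc encodes the large scaffold on which beta-catenin is held for phosphorylation. It had 45.4, 57.2 and 30.2 CPM in the knockout, against 3.03 and 8.22 CPM in wild type. The lowest knockout library was above the higher wild-type library. The log2 fold change was 2.92 ± 0.60 (SE), with an unadjusted p of 0.0025 and an adjusted p of 0.801 in edgeR. DESeq2 called it higher, with a log2 fold change of 2.85 and an adjusted p of 0.000426, and called 2.33% of 16164 genes in either direction and 2.21% higher. In the authors' deposited table Apc had a log2 fold change of 2.30 and an adjusted p of 0.00131, in a table where 1.43% of 12872 genes had an adjusted p under 0.05, 1.36% higher and 0.0699% lower. Adjusted p-values over the alternatives ranged from 0.000426 to 1.00.

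Fold changes of the Ift88 experiment varied with exon length, and the 16.1 kb of exon of Apc put it in the longest of 5 equal groups of genes. The median log2 fold change was -0.43 in the shortest group and 0.59 in the longest. Apc stood above 94.5% of the genes of the longest group. With length taken out of each library its log2 fold change was 1.85 (edgeR adjusted p = 0.921).

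Gsk3b encodes the kinase of the complex. It had 66.1, 91.6 and 53.5 CPM in the knockout, against 24.5 and 18.0 CPM in wild type, so that the groups did not overlap. The log2 fold change was 1.56 ± 0.46 (SE; unadjusted p = 0.0139, edgeR adjusted p = 0.801). With length taken out it was 0.87.

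Axin1 had 14.4, 10.7 and 11.3 CPM in the knockout, against 3.92 and 5.60 CPM in wild type. The groups did not overlap, and the log2 fold change was 1.25 ± 0.70 (SE; edgeR adjusted p = 0.840). Its relative Axin2, which the pathway itself induces, had few counts, with 35, 145 and 20 counts in the knockout against 8 and 37 counts in wild type. As levels these were 1.12, 3.60 and 0.856 CPM in the knockout, against 0.255 and 0.688 CPM in wild type, and the log2 fold change was 1.90 ± 1.70 (SE; edgeR adjusted p = 0.904). The groups were apart for Axin2 too, but its 95% interval ran from -2.22 to 6.03. Axin2 made up 9.68% ± 7.999 of the summed CPM per kb of both Axin genes in the knockout (SD, n = 3) and 6.10% ± 2.51 in wild type (SD, n = 2).

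Ctnnb1, the gene of beta-catenin itself, had 928, 855 and 806 CPM in the knockout, against 445 and 732 CPM in wild type. The wild-type replicate with more endothelial and interstitial marker RNA, replicate 2, was the one closer to the knockout. Its cardiomyocyte marker sum was 221 CPM, against 37147 to 48999 CPM in the knockout. Apc, Axin1 and Axin2 were also higher in replicate 2 than in replicate 1 of the wild type, and Gsk3b was lower (18.0 and 24.5 CPM). Ctnnb1 had a log2 fold change of 0.46 ± 0.36 (SE; 95% interval -0.42 to 1.34; edgeR adjusted p = 0.891). The 5 genes whose groups were apart therefore ranged from 0.46 for Ctnnb1 to 2.92 for Apc in log2 fold change. The interstitial and fibroblast marker sum was likewise higher in all knockout libraries (9760 to 15403 CPM) than in both wild-type libraries (2492 and 9171 CPM). So was the sum of 10 melanocyte and Schwann markers, at 114 to 270 CPM against 78.3 and 108 CPM. The other marker sums overlapped between the groups. The part of these sums in the results of these 5 genes was not tested.

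**Figure D1:**
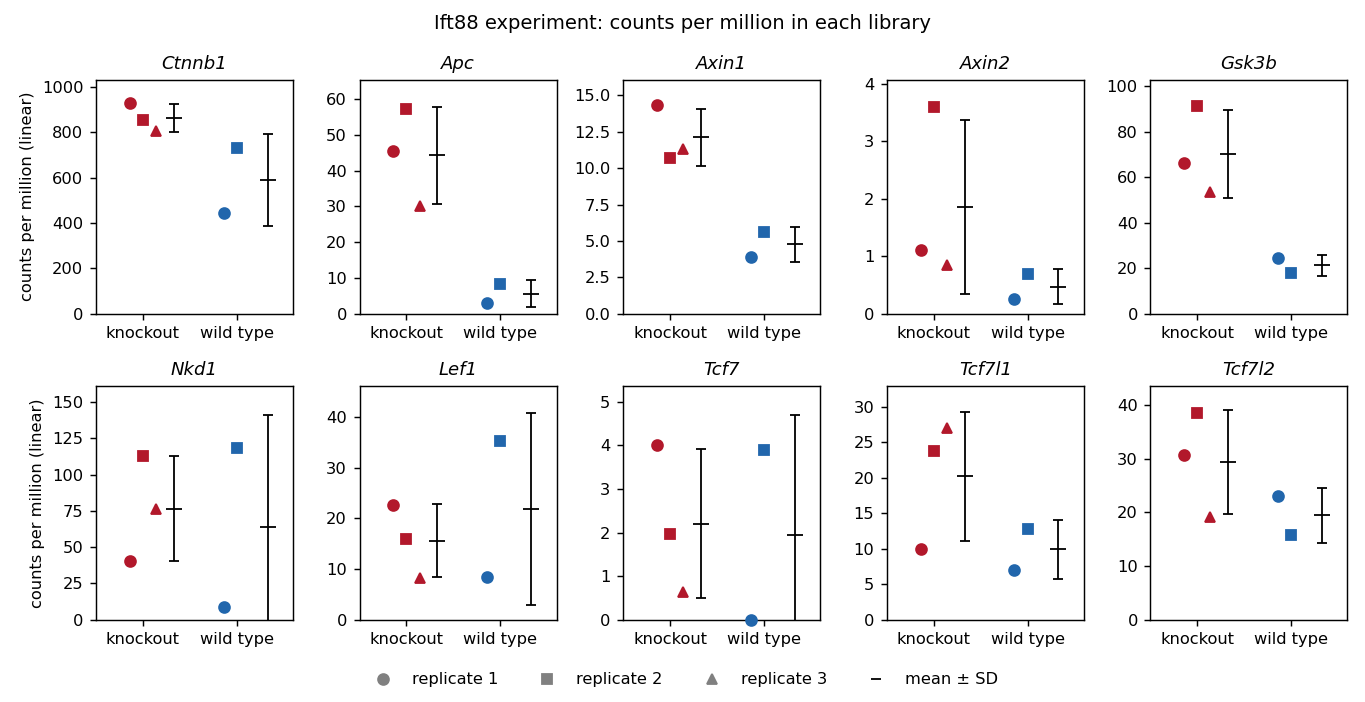
Level of each gene in CPM (linear axes from 0, a scale of its own per gene) in the 3 Ift88 knockout and 2 wild-type libraries, with the mean and SD of each group in black; SD bars that would run below 0 are cut there. Ctnnb1, Apc, Axin1, Axin2 and Gsk3b were higher in all knockout libraries, and the 2 wild-type libraries stood far apart for Nkd1 (8.66 and 119 CPM), Lef1 and Tcf7.

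Nkd1 encodes an inhibitor that binds Dishevelled and is induced by the pathway. It had 40.5, 113 and 76.5 CPM in the knockout, against 8.66 and 119 CPM in wild type. The wild-type libraries, which differed 13.7-fold, enclosed all knockout libraries. Nkd1 had a log2 fold change of 0.28 ± 0.94 (SE; edgeR adjusted p = 0.983).

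Lef1, a factor that is itself a target of the pathway, had 22.7, 15.9 and 8.30 CPM in the knockout, against 8.41 and 35.3 CPM in wild type. Tcf7, which encodes Tcf1, had 4.02, 1.96 and 0.642 CPM in the knockout, against 0 and 3.89 CPM in wild type. The count of 0 in wild-type replicate 1 allows up to 0.0955 CPM, the level of 3 counts, by counting error alone. For both genes the groups overlapped, with log2 fold changes of -0.50 ± 0.73 for Lef1 and 0.25 ± 2.20 for Tcf7 (SE; edgeR adjusted p = 0.951 and 0.993).

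Nkd1, Lef1 and Tcf7 were each low in wild-type replicate 1 and high in wild-type replicate 2, the libraries with 509 and 4399 CPM of endothelial marker RNA. Tcf7l1 was also higher in replicate 2 (6.97 and 12.8 CPM), and Tcf7l2 was lower there (23.1 and 15.9 CPM). The Cre is expressed from Nfatc1, which had 130, 598 and 221 CPM in the knockout, against 47.1 and 434 CPM in the same 2 wild-type libraries. The part of the marker differences in these values was not tested.

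Tcf7l1, which encodes a factor known mainly as a repressor, had 9.92, 23.7 and 27.0 CPM in the knockout, against 6.97 and 12.8 CPM in wild type. Tcf7l2 had 30.6, 38.4 and 19.1 CPM in the knockout, against 23.1 and 15.9 CPM in wild type. In both genes 1 knockout library lay inside the wild-type range. Their log2 fold changes were 0.93 ± 0.65 for Tcf7l1 and 0.42 ± 0.53 for Tcf7l2 (SE; edgeR adjusted p = 0.879 and 0.937). With exon length taken out that of Tcf7l2 was -0.18.

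The direction of 3 of the 10 genes hung on single libraries. The log2 fold change of Nkd1 was -0.63 without wild-type replicate 1 and 2.83 when the other wild-type library was left out instead. For Lef1 these values were -1.14 and 0.60. Tcf7 was at -0.77 without wild-type replicate 1, and leaving out wild-type replicate 2 kept only a library with 0 counts, against which no size of a fold can be given. For Tcf7, leaving out knockout replicate 1 also turned the sign, to -0.60, and for Nkd1 leaving out knockout replicate 2 did, to -0.093. Apc stayed between 2.45 and 3.56, Gsk3b between 1.21 and 1.99, Axin1 between 1.05 and 1.34 and Ctnnb1 between 0.26 and 0.65 with any 1 of the 5 libraries left out. Axin2 stayed positive, between 1.02 and 2.53.

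**Figure D2:**
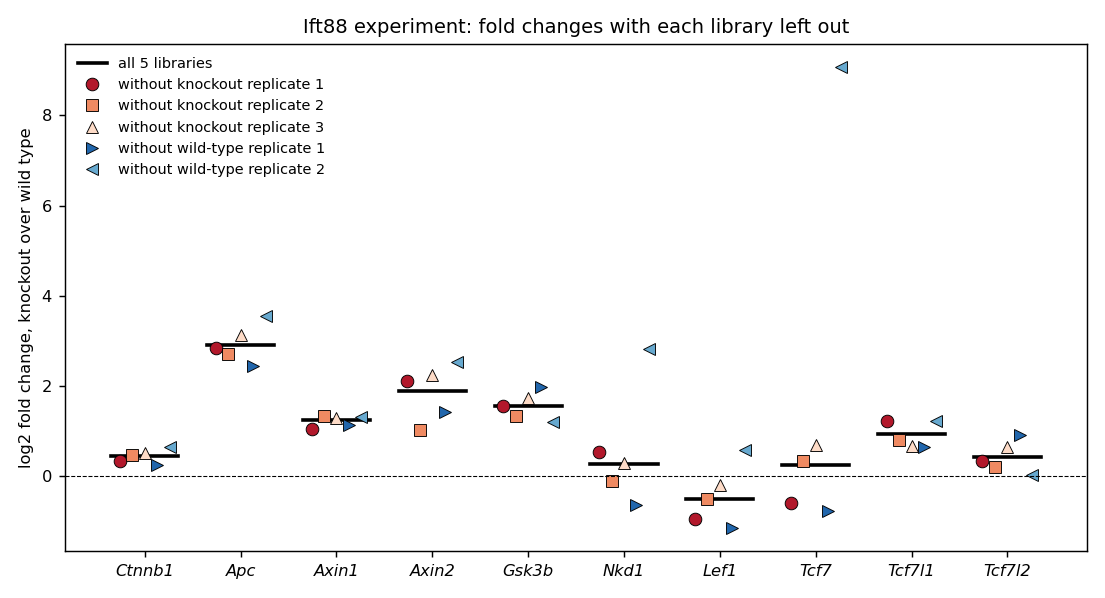
Log2 fold change of each gene, Ift88 knockout over wild type, with all 5 libraries (black bar) and with each library left out in turn (symbols). Apc was 2.45 or more in each fit, Nkd1 and Lef1 lay on both sides of 0 depending on which wild-type library was kept, and the top Tcf7 symbol is fitted against 1 library with 0 counts, so its height depends on the prior count and is no bound.

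A set of 3 libraries (knockout replicates 1 and 2 and wild-type replicate 1) share a title prefix, IR28N, which the labels do not explain. Within these 3, Apc had a log2 fold change of 3.78, Gsk3b 1.38, Axin1 1.38, Ctnnb1 0.70 and Nkd1 2.83. The median of all tested genes was 0.23 within these 3 libraries and -0.013 in all 5. Lef1 was at 0.90 within them, the opposite sign to all 5 libraries. The single wild-type library there is assumed to vary like the others.

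**Figure D3:**
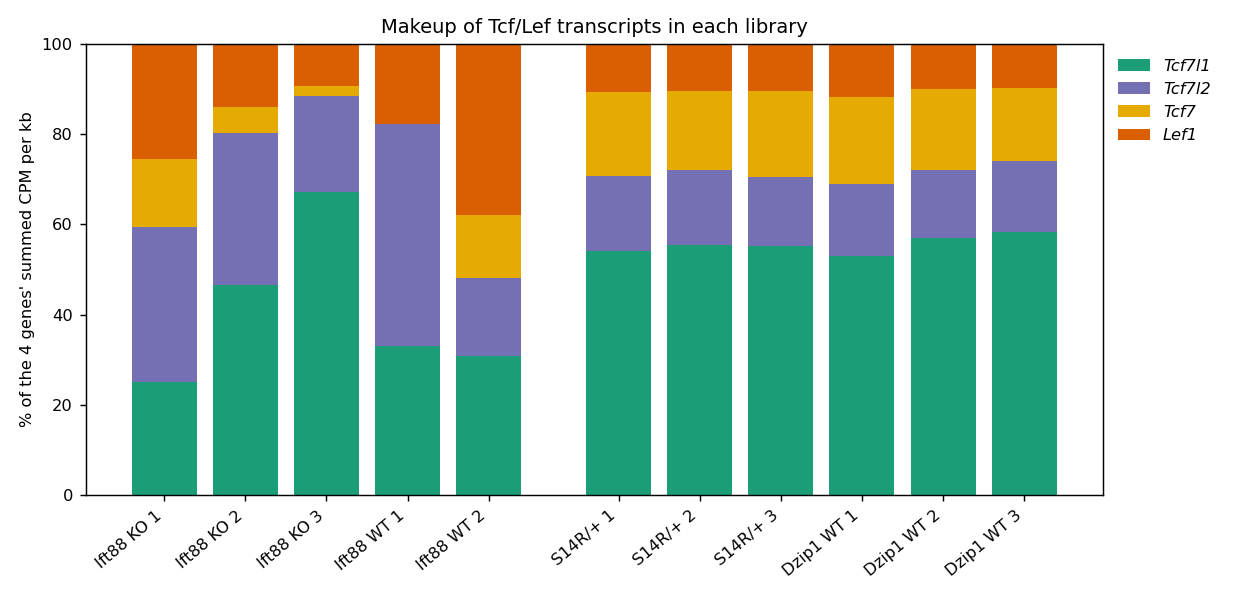
Makeup of Tcf/Lef transcripts in each of the 11 libraries, as the percentage of the summed CPM per kb of Tcf7l1, Tcf7l2, Tcf7 and Lef1. Tcf7l1 took 54.9% on average in S14R/+ and 56.1% in its wild type with little spread, and 25.0 to 67.2% in the Ift88 knockout libraries.

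Per kb, Tcf7l1 was the most abundant of the 4 factor genes in the Dzip1 leaflets. It made up 54.9% ± 0.81 of their summed level in S14R/+ and 56.1% ± 2.80 in wild type (SD, n = 3 each). Tcf7 made up 18.4% ± 0.64 in S14R/+ and 17.8% ± 1.49 in wild type, Tcf7l2 16.2% ± 0.73 and 15.6% ± 0.34, and Lef1 10.55% ± 0.18 and 10.51% ± 1.15, in the same order of groups. For each factor the genotypes differed by less than the SD of 1 of the groups. In the Ift88 experiment Tcf7l1 made up 46.2% ± 21.1 in the knockout (SD, n = 3) and 32.0% ± 1.56 in wild type (SD, n = 2). Tcf7l2 made up 29.8% ± 7.43 in the knockout and 33.1% ± 22.6 in wild type, and these shares overlapped.

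In Dzip1 S14R/+ leaflets all 10 genes lay between 0.881 and 1.02 times the wild-type level, and the groups overlapped in each of them. Axin2 was the furthest from wild type, at 0.881 times its level, and was not called. None of the 10 passed an adjusted p under 0.05 in edgeR, in which 0% of 16160 tested genes passed, nor in DESeq2, in which 0% of 21010 passed. With 1 library left out at most 10 genes passed in edgeR (10 without wild-type replicate 2, and 2 when replicate 1 was left out), none of them among the 10 described. At an unadjusted p under 0.05, 1 of the 10 (Axin2) was below, against 5.93% of all tested genes. Groups were apart in 0 of the 10, against 10.4% of all tested genes, 4.58% with S14R/+ higher and 5.86% with S14R/+ lower.

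These libraries were closely spaced. The coefficient of variation of the 10 genes ranged from 0.25 to 11.6% within a group, against 7.1 to 141% in the Ift88 experiment. The 95% interval of Apc, -0.065 to 0.087 around a log2 fold change of 0.011 ± 0.034 (SE; edgeR adjusted p = 0.967), was narrower than that of any of the 10 in the Ift88 experiment. Dzip1 itself had 29.5, 28.0 and 28.2 CPM in S14R/+, against 30.4, 27.6 and 32.3 CPM in wild type. The groups overlapped, and the log2 fold change was -0.061 ± 0.059 (SE; edgeR adjusted p = 0.891).

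Ctnnb1 had 1063, 1059 and 1068 CPM in S14R/+, against 1039, 1097 and 1061 CPM in wild type. All S14R/+ libraries lay inside the wild-type range. The log2 fold change was 0.0083 ± 0.046 (SE; 95% interval -0.095 to 0.11; edgeR adjusted p = 0.982).

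Of the destruction complex, Apc had 143, 141 and 143 CPM in S14R/+, against 146, 142 and 139 CPM in wild type. Gsk3b had 146, 147 and 141 CPM in S14R/+, against 148, 144 and 143 CPM in wild type. Axin1 had 57.3, 55.5 and 60.2 CPM in S14R/+, against 58.7, 58.6 and 60.4 CPM in wild type. The 3 genes differed by log2 fold changes of 0.011, 0.011 and -0.027, each smaller than its SE. The signs of Ctnnb1, Apc and Gsk3b turned with library totals in place of TMM scaling, where they were -0.0037, -0.00095 and -0.0015.

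Axin2 had 14.02, 16.5 and 15.6 CPM in S14R/+, against 17.6, 15.98 and 19.2 CPM in wild type. Only wild-type replicate 2 lay inside the S14R/+ range, so the groups overlapped in a narrow band. The log2 fold change was -0.18 ± 0.078 (SE; 95% interval -0.36 to -0.0070; unadjusted p = 0.0430, edgeR adjusted p = 0.828), and it ran from -0.24 to -0.12 with any 1 of the 6 libraries left out. Axin2 made up 15.6% ± 1.32 of the summed level per kb of both Axin genes in S14R/+ and 17.1% ± 1.078 in wild type (SD, n = 3 each). The interstitial and macrophage marker sums were also lower, and the cardiomyocyte sum higher, in each S14R/+ library than in any wild-type library, and their part in the Axin2 value was not tested.

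Nkd1 had 32.9, 35.3 and 31.4 CPM in S14R/+, against 39.8, 34.1 and 33.6 CPM in wild type. Lef1 had 21.4, 21.4 and 21.3 CPM in S14R/+, against 24.7, 20.3 and 20.4 CPM in wild type. Tcf7 had 11.04, 10.9 and 11.4 CPM in S14R/+, against 12.0, 10.7 and 10.2 CPM in wild type. Wild-type replicate 1 was the highest of the 6 libraries in all 3 genes. That library also had the highest sum of 7 erythroid markers, with sums of 165 to 332 CPM in S14R/+ and 296 to 607 CPM in wild type, and the part of this was not tested. The log2 fold changes were -0.096 ± 0.074 for Nkd1, -0.016 ± 0.077 for Lef1 and 0.025 ± 0.076 for Tcf7 (SE). Without wild-type replicate 1 that of Lef1 was 0.084.

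**Figure D4:**
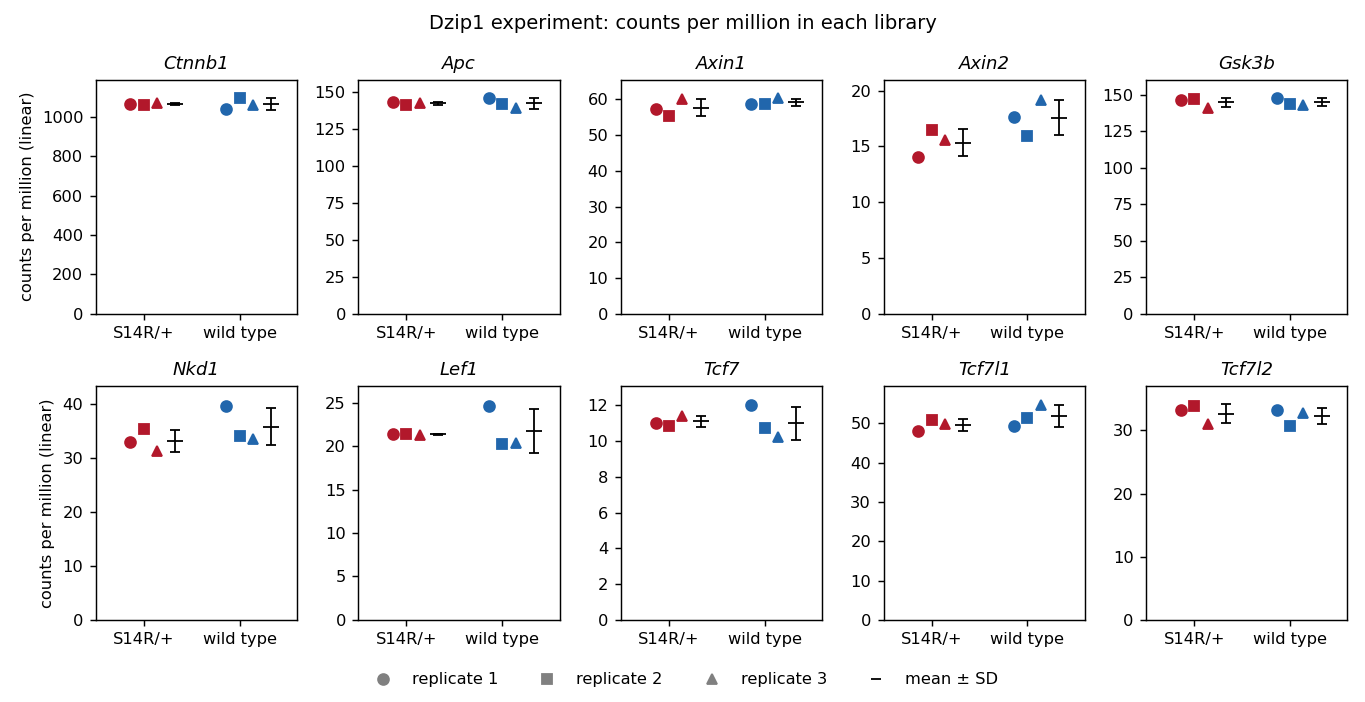
Level of each gene in CPM (linear axes from 0, a scale of its own per gene) in the 3 Dzip1 S14R/+ and 3 wild-type libraries, with the mean and SD of each group in black. The groups overlapped for all 10 genes, and wild-type replicate 1 was the highest library for Nkd1 (39.8 CPM), Lef1 (24.7 CPM) and Tcf7 (12.0 CPM).

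Tcf7l1 had 48.0, 51.0 and 49.97 CPM in S14R/+, against 49.4, 51.3 and 54.8 CPM in wild type. Tcf7l2 had 33.2, 33.8 and 31.0 CPM in S14R/+, against 33.2, 30.8 and 32.8 CPM in wild type. Both overlapped between the groups, with log2 fold changes of -0.050 ± 0.047 and 0.030 ± 0.052 (SE).

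**Figure D5:**
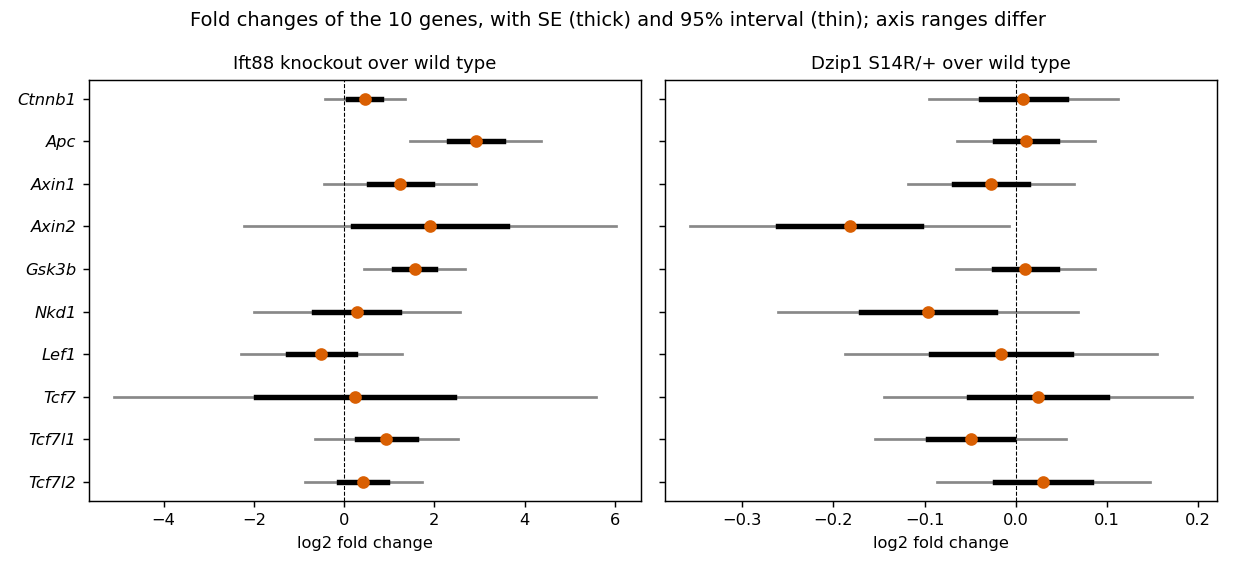
Log2 fold change of each gene with its SE (thick line) and 95% interval (thin line), Ift88 knockout over wild type on the left and Dzip1 S14R/+ over wild type on the right, on axes of different range. Intervals of Apc and Gsk3b on the left and Axin2 on the right leave out 0, and none of these passed the adjusted threshold in edgeR.

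Set side by side, 9 of the 10 genes had a log2 fold change above 0 in the Ift88 knockout, with a median of 0.70, against 49.4% of all tested genes and a median of -0.013. In S14R/+ 5 of the 10 did, with a median of -0.0038, against 49.9% of all tested genes and a median of -0.00033. The Ift88 values are before any correction for exon length, and Apc, Gsk3b, Lef1 and Tcf7l2 are in the longest group of genes. That group had a median of 0.59. With length taken out Tcf7l2 turned to -0.18, Lef1 was at -1.03 and the others stayed above 0. Whether the 2 mutants differ in their effect was not tested, as the tables come from separate experiments.

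Other genes of the pathway were counted in 6 lists. In the Ift88 knockout no gene of these lists was called by edgeR, and 1, Ctnna2, was called by DESeq2. In the fit against wild-type replicate 2 alone, the library with 221 CPM of cardiomyocyte markers, edgeR called 2 (Wisp1 and Cdh2), with the spread taken from the knockout. The part of the marker difference in these calls was not tested. At an unadjusted p under 0.05 were 1 of 22 partners of the destruction complex, 3 of 22 nuclear cofactors, 0 of 20 receptor-level genes, 0 of 11 Wnt ligand genes, 2 of 20 targets and 3 of 11 junctional partners of beta-catenin, against 6.01% of all tested genes. Median log2 fold changes were 0.30, 0.38, 0.80, 0.19, 0.37 and 0.79 in the same order, with exon length not taken out. The groups were apart with the knockout higher in 6, 7, 4, 0, 5 and 6 of these genes, and with the knockout lower in 1, 0, 0, 0, 1 and 0, which were Rbx1, a ubiquitin ligase subunit, and Bambi (Rbx1 was chosen after its values were seen). Over all tested genes the groups were apart in 15.4% with the knockout higher and in 7.55% with the knockout lower.

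Of the partners of the complex, Tnks, a tankyrase that marks Axin for breakdown, had 17.3, 50.8 and 66.0 CPM in the knockout, against 9.05 and 4.83 CPM in wild type. Its log2 fold change was 2.48 ± 0.76 (SE; edgeR adjusted p = 0.801, DESeq2 adjusted p = 0.0781). Crebbp and Ep300, the coactivators CBP and p300 that bind beta-catenin, had log2 fold changes of 1.96 ± 0.61 and 1.69 ± 0.69 (SE; edgeR adjusted p = 0.801 for each). In these 3 genes no knockout library fell within the wild-type range. At the receptor level Fzd1, a Frizzled receptor of Wnts, had 31.0, 27.8 and 63.8 CPM in the knockout, against 16.2 and 13.1 CPM in wild type. Wls, which carries Wnt proteins to the cell surface, overlapped, with 358, 429 and 462 CPM in the knockout, against 216 and 433 CPM in wild type. Neither was called.

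Among the targets Bambi, a pseudoreceptor of the TGF-beta family, lay below wild type, with 75.3, 63.7 and 81.9 CPM in the knockout, against 112 and 194 CPM in wild type (log2 fold change -1.15 ± 0.33, SE; edgeR adjusted p = 0.801). Apcdd1, an inhibitor at the cell surface, and Ccnd1, which encodes cyclin D1, lay above wild type with log2 fold changes of 1.67 ± 0.58 and 1.13 ± 0.47 (SE; edgeR adjusted p = 0.801 for each). None of the 3 was called by edgeR or DESeq2.

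At cell junctions beta-catenin links cadherins to alpha-catenins. Ctnna2, an alpha-catenin gene, had 92, 236 and 141 counts in the knockout, against 0 counts in both wild-type libraries, at least 140-fold higher in CPM with a floor of 3 counts over the wild-type group. DESeq2 gave it an adjusted p of 4.23e-05 and edgeR 0.801. In the Dzip1 experiment it was present in both groups, with 4.51, 6.01 and 3.66 CPM in S14R/+, against 5.01, 5.10 and 6.68 CPM in wild type. Ctnnd1, which encodes p120-catenin, and Vcl, which encodes vinculin, had log2 fold changes of 1.108 ± 0.38 and 1.19 ± 0.42 in the knockout (SE; edgeR adjusted p = 0.801 for each). All 3 are named as the junctional genes with the smallest p.

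In S14R/+ no gene of the 6 lists was called by edgeR or DESeq2. At an unadjusted p under 0.05 were 0 of 21 partners of the complex, 1 of 22 nuclear cofactors, 0 of 23 receptor-level genes, 1 of 14 Wnt ligand genes, 2 of 21 targets and 0 of 12 junctional partners, against 5.93% of all tested genes. Median log2 fold changes were 0.012, 0.0091, -0.015, -0.059, -0.022 and -0.017 in the same order. Among the targets Tnfrsf19, a receptor of the TNF family, had 52.0, 50.6 and 51.3 CPM in S14R/+, against 46.9, 49.2 and 46.7 CPM in wild type (log2 fold change 0.12 ± 0.043, SE; edgeR adjusted p = 0.822). Dkk1, a secreted inhibitor of the Wnt receptor, had low levels, with 0.547, 0.541 and 0.2995 CPM in S14R/+, against 0.928, 0.594 and 1.01 CPM in wild type (log2 fold change -0.85 ± 0.32, SE; edgeR adjusted p = 0.822). In both genes the groups were apart, in opposite directions. Over the 6 lists, in the order above, groups were apart with S14R/+ higher in 1, 0, 0, 0, 1 and 0 genes. With S14R/+ lower they were apart in 1, 1, 0, 2, 3 and 1 genes. The shares over all tested genes were 4.58% with S14R/+ higher and 5.86% with S14R/+ lower. Tle3, a corepressor of the Tcf/Lef factors, had 50.9, 49.3 and 50.2 CPM in S14R/+, against 56.5, 50.8 and 58.0 CPM in wild type (log2 fold change -0.12 ± 0.047, SE; edgeR adjusted p = 0.822).

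On GRCm38, in the GENCODE M21 annotation, the exons of Ctnnb1 (chr9:120929216-120960507, plus strand) share 14.6% of their length with Ulk4 on the other strand. Lef1 (chr3:131110471-131224356, plus strand) shares 13.7% with Gm43352, Tcf7l1 (chr6:72626378-72789254, minus strand) 4.56% with Gm15401 and Axin2 (chr11:108920349-108950783, plus strand) 3.8% with Gm11670, each on the opposite strand. The strand setting of the counting is not given in the sources used here, and without strand such reads cannot be told apart. Apc (chr18:34220924-34322552, plus strand), Axin1 (chr17:26138688-26195811, plus strand), Gsk3b (chr16:38089001-38246084, plus strand), Tcf7 (chr11:52252371-52283014, minus strand), Tcf7l2 (chr19:55741820-55933654, plus strand) and Nkd1 (chr8:88521354-88594884, plus strand) shared no exon with another gene.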

How the data were processed

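The count tables of the experiments were deposited separately and fitted one by one, so levels set across them are from separate normalizations. Per the file headers, each deposited table holds whole-number counts per gene and library, and beside them the authors' signal (a mean of scaled counts), log2 fold changes with standard errors, a score (their ratio) and p-values with adjusted p-values. Per the submitters' processing notes, the tools were cutadapt 1.11, FastQC 0.11.5, DESeq, DESeq2 and HTSeq, and the build GRCm38. No aligner, annotation or strand setting is given in the sources used here. Per the labels' protocols, RNA was extracted with an RNeasy kit and made into libraries with SMART-Seq v4.

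The 10 genes and the 6 lists were chosen with earlier results of these data known. Genes were tested on the whole tables by the quasi-likelihood F test of edgeR 4.0.16 (R 4.3.3), after default filterByExpr filtering and with TMM scaling, mutant over wild type, with Benjamini-Hochberg adjustment and a threshold of 0.05. The filter kept 14244 of 24062 genes (6914 had no count) and 16160 of 26667 (5654 had no count), and all 10 members passed in both. SE is the log2 fold change over the root of F. edgeR's common biological coefficient of variation came to 87.7% for Ift88 and 7.85% for Dzip1. Levels are CPM on the library total. Exon lengths are from GENCODE M21 and cover all annotated exons of a gene, with shared bases counted once. They were found for 26443 of 28591 symbols (2187 through a RefSeq synonym). Named beside the members are the targeted genes and up to 3 genes per list, ranked by p. Marker genes, and Nfatc1, stand beside results as descriptions. Intervals and floors (3 counts) cover counting or replicate error only. The main edgeR fit was tested on simulated data, and the alternative fits were not.

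Alternatives were DESeq2 1.42.0, the deposited statistics, RLE scaling and library totals, 2 other filters (1 count, or a mean of 50), each library left out, the IR28N libraries alone and the cardiomyocyte mean as a covariate. A correction for exon length in each library (lowess, span 0.3) was chosen after seeing the data. The deposited Dzip1 statistics were not used: across genes their fold changes had a Spearman correlation of -0.543 with the labelled comparison, and their direction is not stated, while the Ift88 ones had 0.946. The unused Dzip1 statistics held 14 genes with an adjusted p under 0.05.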

Additional observations from a re-analysis of the deposited data

How the results depend on the processing

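In the Ift88 experiment edgeR called 0 genes, DESeq2 376 and the deposited statistics 184, and leaving out 1 library gave 0 to 187 (187 without wild-type replicate 1). Of the 10 members DESeq2 and the deposited statistics each called 1, Apc. Of the lists they called 1, Ctnna2, and leaving out 1 library gave 0 to 2 (Wisp1 and Cdh2, without wild-type replicate 1). Lef1 turned to 0.90 in the IR28N libraries alone and to 0.56 with the cardiomyocyte covariate, and ran from -1.14 to 0.60 with 1 library left out. Tcf7 ran from -0.77 to 9.07 (against 0 counts) and Nkd1 from -0.63 to 2.83. Tcf7l2 was at -0.18 after the exon length correction. Of 139 member values under alternatives, 129 kept direction and side of the threshold, 8 turned and 2 passed it. Keeping the side says little, as the main fit called 0 genes. The alternatives are also not separate checks, since the IR28N libraries alone leave out wild-type replicate 2 as well. The cardiomyocyte covariate mainly sets that library apart, as its marker sum was 221 CPM, against 37147 CPM or more in the others. With the covariate Apc was at 3.53, Lef1 at 0.56 and Nkd1 at 2.68. Without wild-type replicate 2 these genes were at 3.56, 0.60 and 2.83.

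In the Dzip1 experiment edgeR called 0 genes, and leaving out 1 library gave 0 to 10 (10 without replicate 2 of the wild type, 2 without its replicate 1, and 1 without S14R/+ replicate 2), with no member among them. With library totals Ctnnb1 was at -0.0037, Apc at -0.00095 and Gsk3b at -0.0015. With 1 library left out Ctnnb1 ran from -0.0098 to 0.040, Apc from -0.015 to 0.031, Axin1 from -0.061 to 3.46e-05, Gsk3b from -0.011 to 0.027, Lef1 from -0.073 to 0.084 and Tcf7 from -0.034 to 0.093. These 11 turns, of 120 values, are of differences near 0. The cause of these changes was not tested.

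Library totals moved the median of all genes to 0.10 in the Ift88 experiment, against -0.013 with TMM. The deposited statistics were not run for Dzip1, and Axin2 had no value in the Ift88 experiment at a mean count of at least 50. No paired analysis was possible because replicate numbers were given in accession order and pair nothing. The Ift88 experiment has 2 wild-type libraries, and a fit without either of them assumes that the other varies like the knockout.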

Other observations

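Of the 10 genes, 8 (all but Lef1 and Nkd1) had lower levels in every wild-type library of the Ift88 experiment than in any wild-type library of the Dzip1 experiment. The same held for 43.7% of 15678 genes with a count in both tables, and 24.9% were higher in the Ift88 wild type without overlap. Apc averaged 5.62 ± 3.67 CPM in the Ift88 wild type (SD, n = 2), beside 142 ± 3.54 CPM in the Dzip1 wild type (SD, n = 3). Axin2 averaged 0.471 ± 0.306 CPM in the Ift88 wild type, beside 17.6 ± 1.59 CPM in the Dzip1 wild type. Axin1 averaged 4.76 ± 1.19 and Gsk3b 21.2 ± 4.62 CPM in the Ift88 wild type, beside 59.3 ± 1.01 and 145 ± 2.82 CPM in the Dzip1 wild type. The Ift88 knockout averages of 44.3 ± 13.5 CPM for Apc and 70.4 ± 19.4 CPM for Gsk3b (SD, n = 3) also lay below the Dzip1 wild type. Ctnnb1 averaged 588 ± 203 CPM, Tcf7 1.94 ± 2.75 CPM, Tcf7l1 9.90 ± 4.14 CPM and Tcf7l2 19.5 ± 5.11 CPM in the Ift88 wild type. In the Dzip1 wild type Ctnnb1 averaged 1066 ± 29.4 CPM, Tcf7 11.01 ± 0.918 CPM, Tcf7l1 51.8 ± 2.76 CPM and Tcf7l2 32.3 ± 1.30 CPM. Lef1 averaged 21.8 ± 19.0 CPM in the Ift88 wild type, beside 21.8 ± 2.52 CPM in the Dzip1 wild type, and Nkd1 63.6 ± 77.7 CPM, beside 35.8 ± 3.44 CPM. The tables were made apart and no test was run across them, so the sources of these differences cannot be told apart here.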
